A study of Mus musculus with 26 samples.

Results

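The genes of endoplasmic reticulum (ER) stress and of the integrated stress response were followed in the livers of 26 C57BL/6 mice given benoxacor, a safener added to herbicide products to protect the crop. The genes were the rows of the deposited count table whose symbol is 1 of 35 names, and all 35 were found among its 54532 genes. They fell into a chaperone arm of 23 genes and an Atf4 arm of 12 genes. Mice received 0, 0.5, 5 or 50 mg/kg by oral gavage on 3 consecutive days, and liver was taken 24 hours after the last gavage. The groups held 5, 5, 8 and 8 mice. All mice, controls included, were acclimatised between weeks 4 and 8, and bedding was mixed between them to even out their gut microbes. The labels give neither sex nor the age at the first dose, and the control group is defined only by its dose of 0. Mouse numbers form 2 runs, 601 to 616 with 15 mice and 619 to 632 with 11, and what separates the runs is not given in the sources used here. From the lowest dose to the highest, the earlier numbers comprise 4, 3, 4 and 4 mice and the later ones 1, 2, 4 and 4. Within a run the number rises with the dose, so dose cannot be told apart from whatever else followed that order.

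Proteins bound for secretion fold inside the ER, and the liver, which makes most plasma proteins, carries a large folding load. When unfolded protein builds up, the sensors Ern1 (IRE1), Eif2ak3 (PERK) and Atf6 act, and the transcription factors Xbp1 and Atf6 raise chaperones, disulfide isomerases and the machinery of ER-associated degradation, which returns misfolded protein to the cytosol for destruction. Phosphorylation of the initiation factor eIF2α, by PERK or by kinases that sense amino acid shortage, heme shortage or viral RNA, favours translation of Atf4, which raises genes of amino acid supply and of feedback control.

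Promoter sequences of 32 of the 35 genes were found in RefSeq on GRCm38.p6, each running from 250 bases before to 50 bases after the annotated start. They were searched on both strands for letters known to bind the factors of each arm. The ER stress element (CCAAT and CCACG with 9 bases of any kind between them) occurred in 9 of 20 chaperone-arm genes (Calr, Canx, Creld2, Derl3, Dnajc3, Hsp90b1, Hspa5, Pdia6 and Syvn1) and in 0 of 12 Atf4-arm genes. Among all 32851 promoters of the table, 39 held it, or 0.119%. The related ERSE-II (ATTGG and CCACG with 1 base of any kind between them) occurred in Dnajb11 and Herpud1 and in 0.0365% of all promoters. TGATGNAA, the core of the C/EBP-ATF site that Atf4 can bind, occurred in Asns, Chac1, Trib3 and Herpud1 and in 3.97% of all promoters. TGACGTGG, a core read by Xbp1 and Atf6, was in 0 member promoters and in 0.676% of all promoters. No site of one motif overlapped a site of another. A match is a description of letters, and a missing match says only that these letters are not in the window.

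The stretches below show matches to these elements in both arms, in capitals, with up to 30 bases on either side. They run 5′ to 3′ on the gene's own strand and end before the RefSeq start. An element that lies on the other strand appears as its reverse complement, from CGTGG to ATTGG for the ER stress element. The stretch of Hspa5, which encodes the chaperone BiP, is chr2:34771995-34772073 (plus strand). Hsp90b1, the ER form of Hsp90, carries 2 elements at chr10:86705503-86705686 (minus strand). The stretch of Creld2, a secreted stress-induced protein, is chr15:88819490-88819568 (plus strand), and that of Syvn1, the ubiquitin ligase of ER-associated degradation, is chr19:6046502-6046575 (plus strand). Herpud1, a partner of that ligase, has both ERSE-II and the C/EBP-ATF core at chr8:94386287-94386417 (plus strand). From the Atf4 arm, the stretch of Asns (asparagine synthetase) is chr6:7693210-7693262 (minus strand), and that of Chac1, an enzyme that degrades glutathione, is chr2:119351019-119351086 (plus strand).
Hspa5: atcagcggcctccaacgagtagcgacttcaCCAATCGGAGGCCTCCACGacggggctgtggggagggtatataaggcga
Hsp90b1: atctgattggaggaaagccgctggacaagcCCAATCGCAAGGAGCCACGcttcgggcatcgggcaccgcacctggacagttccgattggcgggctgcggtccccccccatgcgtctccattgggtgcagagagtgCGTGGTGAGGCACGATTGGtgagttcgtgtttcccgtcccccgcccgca
Creld2: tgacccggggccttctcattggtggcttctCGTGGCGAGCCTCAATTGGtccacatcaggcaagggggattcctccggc
Syvn1: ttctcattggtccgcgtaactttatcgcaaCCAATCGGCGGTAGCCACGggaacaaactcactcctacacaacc
Herpud1: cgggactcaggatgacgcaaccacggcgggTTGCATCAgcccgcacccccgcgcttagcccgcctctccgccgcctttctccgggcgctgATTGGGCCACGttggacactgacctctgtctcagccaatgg
Asns: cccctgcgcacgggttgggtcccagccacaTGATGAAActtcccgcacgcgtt
Chac1: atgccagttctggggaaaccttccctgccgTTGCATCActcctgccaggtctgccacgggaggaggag

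Total counts per library ran from 5433074 to 9088626, with a median of 7105531, and each library is a separate mouse. Levels below are in CPM, each gene's share of the library's reads after TMM scaling, which limits the weight of a few very abundant genes. Hepatocyte markers were high in every library (summed 42915 CPM or more over 6 genes), and the acinar marker Amy2a5 was at 0 in all. The library of 5 mg/kg replicate 8 stood apart: its 6 markers of steroid-producing cells summed to 3517 CPM, against at most 30.4 CPM in the other 25, and its 7 pancreatic acinar markers summed to 119.8 CPM, against at most 32.6 CPM. Its 7 plasma cell markers, which include the member Derl3, summed to 264.4 CPM, against at most 226.6 CPM, with Igkc at 60.3 CPM (next highest 4.70 CPM) and Ighm at 70.0 CPM (next highest 4.82 CPM). Its 7 stellate and fibroblast markers summed to 462.0 CPM, against at most 336 CPM, with Col1a2 at 59.2 CPM (next highest 20.8 CPM). Not every marker on these lists peaked in that library. The steroid marker Cyp17a1 (26.3 CPM) and the plasma cell marker Sdc1 (203.8 CPM) were highest in 5 mg/kg replicate 6. Tnfrsf17 and Derl3 of the plasma cell list and Lrat, Reln and Dcn of the stellate list were also highest in other libraries. The part of these cells in the members' values was not tested. Saa1, an acute phase gene, was highest in 0.5 mg/kg replicates 1 and 2. Means or highest values of Ddit3, Asns, Psat1 and Phgdh at 5 mg/kg are given with and without 5 mg/kg replicate 8. Other values include that library unless stated. Its levels were also the lowest of the dose for Dnajb9, Herpud1, Edem1, Xbp1 and Atf4 (32.4, 143.7, 159.6, 183.8 and 78.1 CPM). Without it the lowest were 41.9 CPM for Dnajb9 and 158.8 CPM for Herpud1. In bulk liver RNA, fewer cells of a type and less RNA per cell cannot be told apart.

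The members spanned a wide range of levels. Per kilobase of exon, the median over mice was highest for the chaperones Hsp90b1 (287 CPM per kb) and Hspa5 (254 CPM per kb), followed by the disulfide isomerase Pdia3 (178 CPM per kb) and the lectin chaperone Calr (173 CPM per kb). In the Atf4 arm, Atf5 (72.4 CPM per kb) and Atf4 (40.8 CPM per kb) led, and the serine synthesis enzymes Psat1 (0.323 CPM per kb) and Phgdh (0.158 CPM per kb) were lowest. Counts were large for the chaperones, with at least 3809 reads of Hspa5 in each library, and small for several Atf4 targets, with as few as 1 read of Chac1 and 3 of Psat1. Phgdh had 151 reads over all mice and 0 in 2 mice, and it was the single member too low to test. The exons of 11 members overlap those of another gene on the opposite strand, among them 415 bases shared by Hsp90b1 and 1810014B01Rik. The strand setting of the counting is not given in the sources used here, so reads in such stretches are uncertain.

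Levels differed widely between mice. Hspa5 (ENSMUSG00000026864, chromosome 2 from 34771970 to 34777547 on mm10) ranged 5.01-fold, from 507 CPM in 5 mg/kg replicate 1 to 2540 CPM (2539.6) in 50 mg/kg replicate 4. Creld2 ranged 9.14-fold, from 19.8 to 180.6 CPM, with its extremes in the same 2 mice as Hspa5. Derl3, a channel component of ER-associated degradation, ranged 19.6-fold. Atf4 itself ranged 1.62-fold, from 78.1 to 126.8 CPM, the narrowest span of the 34 tested members. Asns ranged 42.3-fold and Chac1 42.9-fold, the widest spans, both at low counts.

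**Figure D1:**
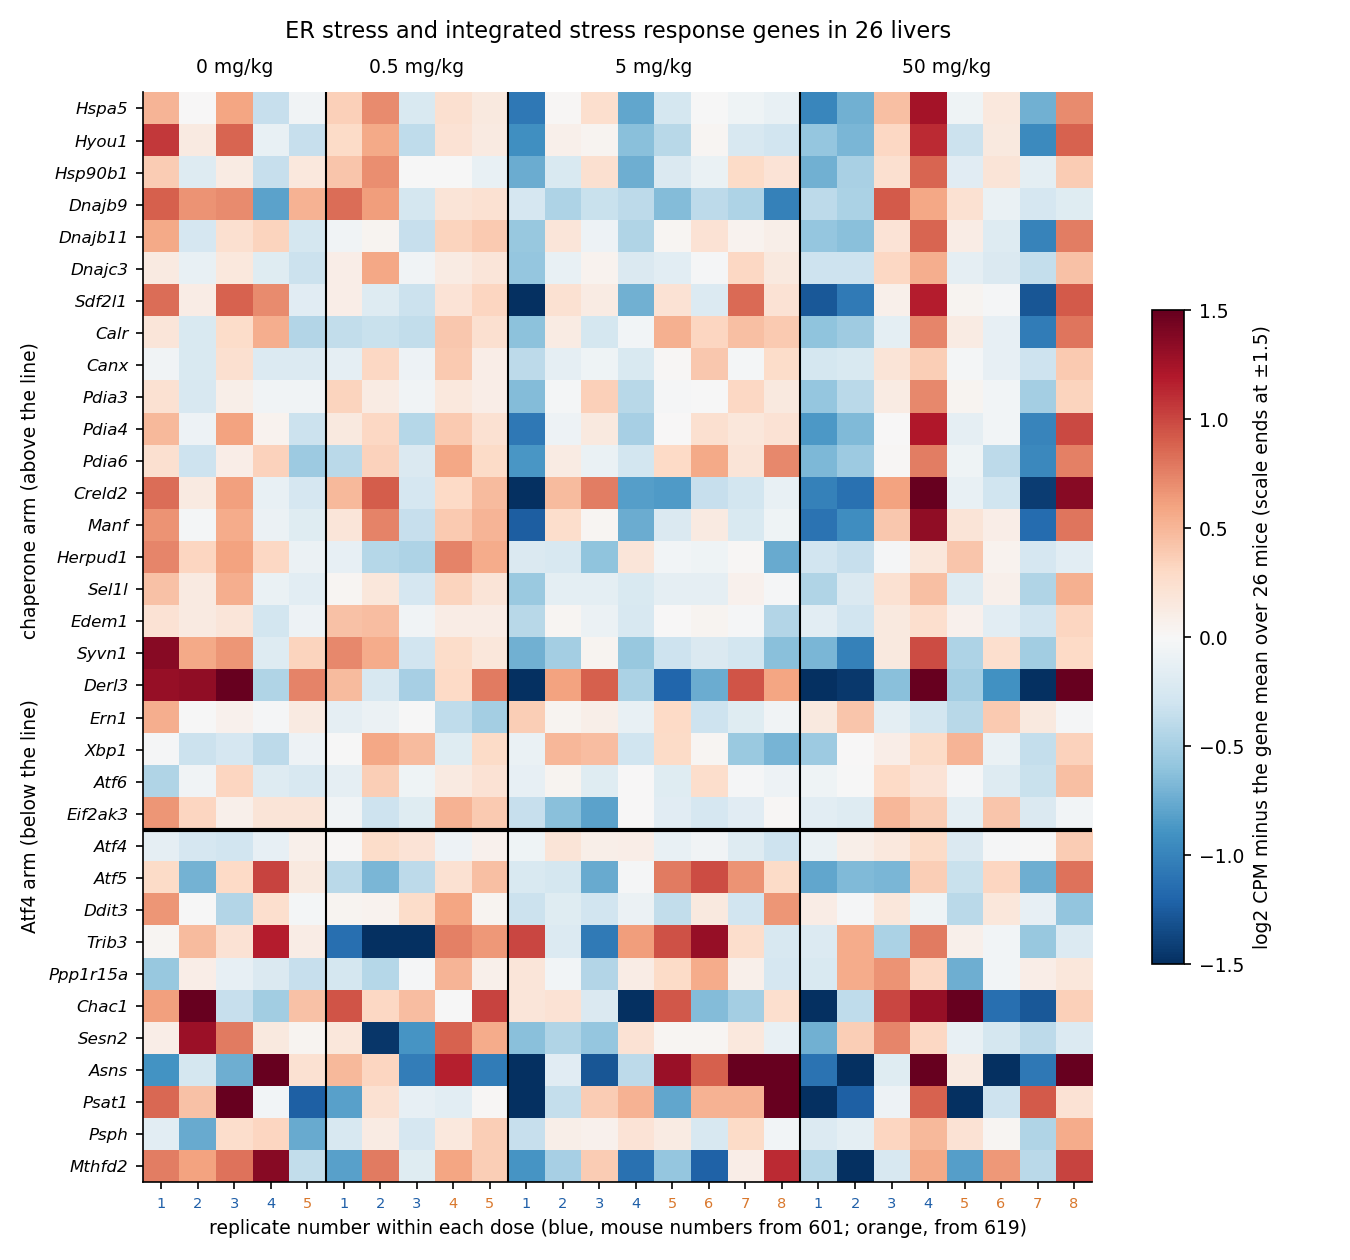
Heat map of the 34 tested members (rows, chaperone arm above the line and Atf4 arm below) in the 26 mice (columns, by dose and replicate), with colour for log2 CPM minus the gene's mean over the 26 mice. Columns such as 50 mg/kg replicates 4 and 8 are red over most of the chaperone arm, and 5 mg/kg replicate 1 and 50 mg/kg replicates 1, 2 and 7 are blue over most of it, while the Atf4 arm is more mixed.

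An index was computed for each mouse as the mean, over the tested members of an arm, of log2 CPM minus the gene's mean over the 26 mice. The chaperone index was highest in 50 mg/kg replicate 4 (0.763) and replicate 8 (0.546) and in 0 mg/kg replicate 1 (0.508). It was lowest in 5 mg/kg replicate 1 (-0.717) and in 50 mg/kg replicates 7 (-0.666) and 1 (-0.609). The 2 highest mice and 3 of the 4 lowest mice had thus received 50 mg/kg. In 50 mg/kg replicate 4, 22 of 23 chaperone-arm members lay above their own mean, and in 5 mg/kg replicate 1 it was 1 of 23.

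By dose, the chaperone index averaged 0.18 ± 0.28 (SD) in the controls, 0.14 ± 0.20 in the 0.5 mg/kg mice, -0.15 ± 0.27 in the 5 mg/kg mice and -0.05 ± 0.53 in the 50 mg/kg mice. The Atf4 index was 0.15 ± 0.21 at 0 mg/kg, -0.04 ± 0.32 at 0.5, 0.01 ± 0.35 at 5 and -0.08 ± 0.40 at 50 mg/kg. For both arms every dose overlapped the controls. The Atf4 index was highest in 5 mg/kg replicate 8 (0.605), the library with steroid-producing markers, and in 50 mg/kg replicate 4 (0.594). It was lowest in 50 mg/kg replicate 1 (-0.613). No test was made of either index.

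**Figure D2:**
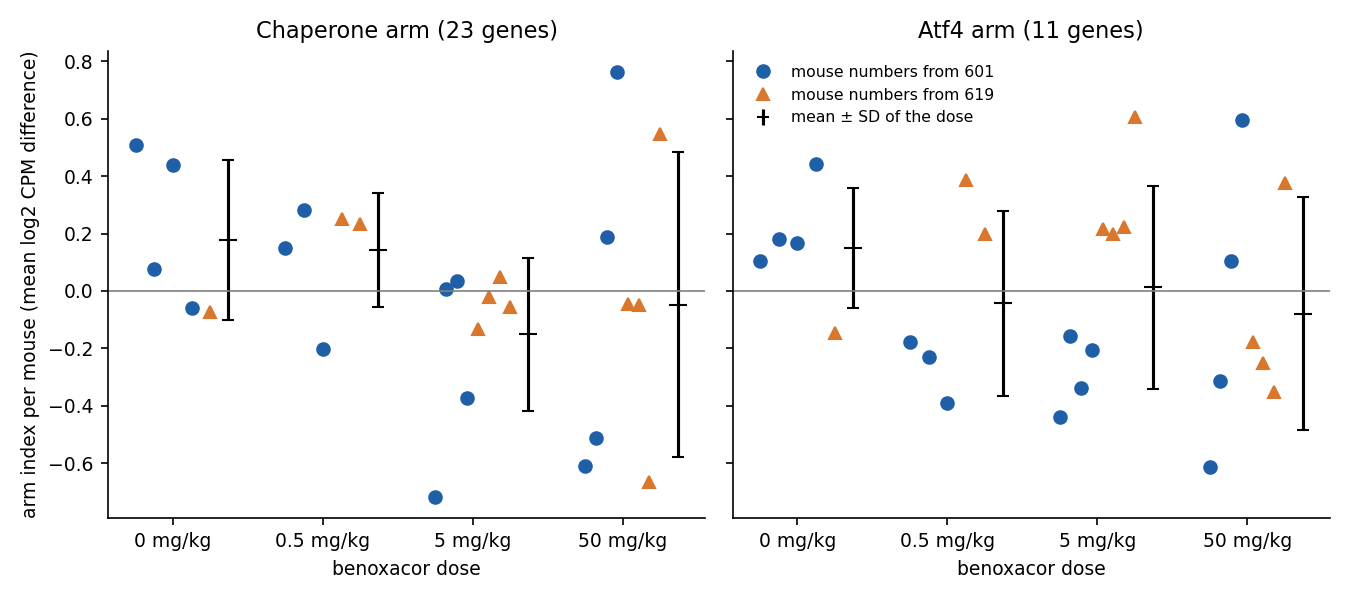
Arm index of each mouse (points, mean log2 CPM difference from the gene means) by dose for the chaperone arm (left) and the Atf4 arm (right), with circles for mouse numbers from 601, triangles for numbers from 619 and bars for mean ± SD. The chaperone index spreads most at 50 mg/kg, from -0.666 to 0.763.

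Most members of the chaperone arm varied together from mouse to mouse. Over the 26 mice, log2 CPM of Hspa5 correlated positively with 21 of the 22 other chaperone-arm members, and 19 passed an adjusted p of 0.05 (permutation test, 100000 resamples, two-sided, Benjamini-Hochberg over 33 members). The closest were Manf, a secreted protein released under ER stress (Pearson r = 0.96, Spearman rho = 0.92), Creld2 (r = 0.94, rho = 0.91), Hyou1, a chaperone that helps BiP exchange nucleotide (r = 0.93, rho = 0.95), and Pdia4 (r = 0.91, rho = 0.82). For each of these 4 the permutation p of r was 1e-05, the smallest that the resamples can give, with an adjusted p of 2.54e-05. The median r was 0.80 over the 22 genes, against -0.01 over all 14414 other tested genes. An r of at least 0.7 was reached by 14 of the 22 and by 0.444% of all tested genes. Calr, Atf6 and Xbp1 passed by Pearson r but not by Spearman rho (permutation adjusted p of rho = 0.0903, 0.0503 and 0.0619).

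The median stayed positive in each subset computed. Without the mice of highest and lowest Hspa5 (50 mg/kg replicate 4 and 5 mg/kg replicate 1) the median r was 0.73, and it was 0.84 within the run from 601 and 0.70 within the run from 619. After dose and run were removed it was 0.83, and after an index of 15 clock genes was removed it was 0.78. For Manf, r was 0.94 without the 2 mice, 0.98 and 0.94 within the runs and 0.96 after dose and run were removed. Within the run from 619 alone, with 11 mice, 11 of the 33 correlations passed, against 22 over all mice, and 24 passed without 5 mg/kg replicate 8, a setting chosen after the data were seen. The points of every correlation over all mice are the same 26 libraries, which differ in depth.

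Not all of the chaperone arm followed Hspa5. Herpud1 had r = 0.26 (rho = 0.26, permutation adjusted p = 0.224), the sensor Eif2ak3 had r = 0.34 (rho = 0.36, adjusted p = 0.112) and the sensor Ern1 had r = -0.32 (rho = -0.30, adjusted p = 0.133). Xbp1 and Atf6, the transcription factors of the arm, had r of 0.43 and 0.46 and did pass (permutation adjusted p = 0.0448 and 0.0268). Dnajb9, a J-domain partner of BiP, passed with r = 0.60 (permutation adjusted p = 0.00266). Its r was 0.73 for the mice from 601 and 0.25 for those from 619. Herpud1 lay closer to Eif2ak3 (r = 0.68) and to Sesn2 of the Atf4 arm (r = 0.65) than to Hspa5, and Calr and Pdia6 had r = 0.90 with each other, against 0.53 and 0.66 with Hspa5. These pairs were picked after their values were seen.

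Gene by gene, the Atf4 arm was loose by comparison. Of its 11 tested members, 3 passed against Hspa5, namely Mthfd2 (r = 0.55), Chac1 (r = 0.53) and Psph (r = 0.44), and the median was 0.31. Psph did not pass by Spearman rho (permutation adjusted p of rho = 0.0671). Ddit3, which encodes the factor CHOP, had r = 0.03, Ppp1r15a (GADD34, a phosphatase subunit that reverses eIF2α phosphorylation) had r = -0.07 and the pseudokinase Trib3 had r = -0.20. Among themselves, the pairs of the Atf4 arm had a median r of 0.12 (55 pairs), against 0.59 for pairs within the chaperone arm (253 pairs) and 0.23 between the arms. The low counts of many Atf4-arm genes limit the precision of these values. As averages over their genes, the chaperone index and the Atf4 index had r = 0.66 over the 26 mice, given without a test.

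**Figure D3:**
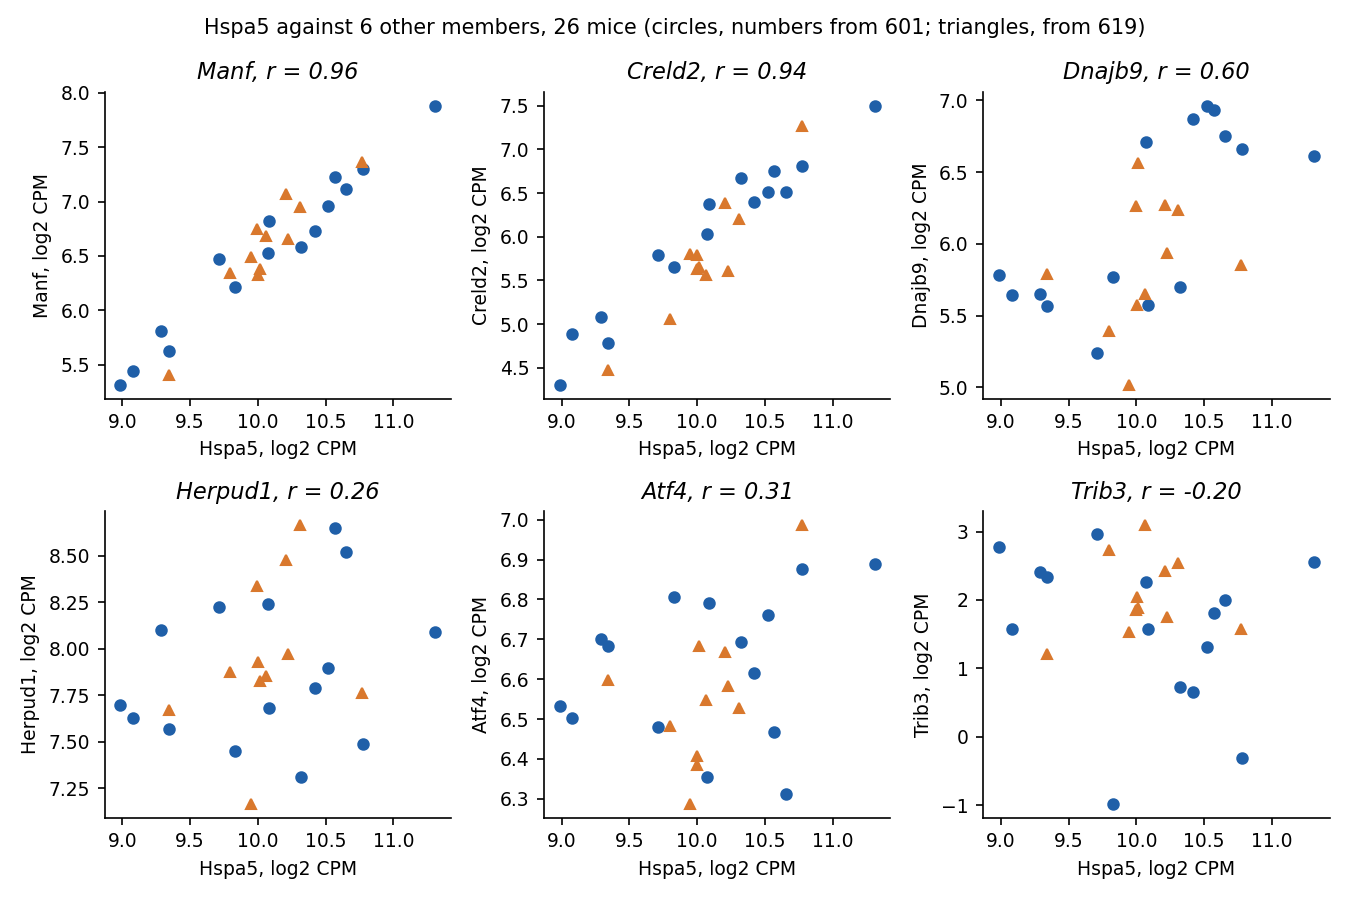
Hspa5 (horizontal axis, log2 CPM) against 6 other members (vertical axes, log2 CPM) in 26 mice, with circles for mouse numbers from 601 and triangles for numbers from 619. Manf and Creld2 lie along a line (r = 0.96 and 0.94), Dnajb9 is looser (r = 0.60), and Herpud1, Atf4 and Trib3 form clouds (r = 0.26, 0.31 and -0.20).

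Of the 30 genes closest to Hspa5 among all tested, 11 were of the chaperone arm and 0 of the Atf4 arm. Genes outside the 35 in that set, named after their values were seen, included Ssr1 (r = 0.92), a subunit of the translocon-associated complex, and Tmed3 (r = 0.87), Uso1 (r = 0.87) and Sec22b (r = 0.86), which act in transport between ER and Golgi. 4930524O07Rik (r = 0.91) and 1810014B01Rik (r = 0.88) overlap Manf and Hsp90b1 on the opposite strand.

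The 8 tested members with the ER stress element, Hspa5 itself left out, had a median r to Hspa5 of 0.80 (0.53 to 0.94). The 11 chaperone-arm members with a promoter entry and no such match had the same median of 0.80, with a range of -0.32 to 0.91. The 10 tested genes outside the 35 that hold the element had a median of -0.02.

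Each dose was compared with 0 mg/kg by edgeR's quasi-likelihood test, in 1 model of all libraries that holds dose and run, with Benjamini-Hochberg adjustment over 14415 genes and a threshold of 0.05. The 3 comparisons share the same 5 controls. At 50 against 0 mg/kg, 0 of 34 tested members passed, against 0.00694% of all tested genes, and the smallest adjusted p of a member was 0.883. At 5 against 0 mg/kg 0 passed (0.00% of all tested genes, smallest adjusted p 0.750), and at 0.5 against 0 mg/kg 0 passed (0.00%, smallest adjusted p 0.669). DESeq2 and limma-voom also passed 0 members in each of these comparisons.

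Below that threshold, the members leaned downward at 5 mg/kg in the fit over both runs. At an unadjusted p under 0.05, 8 members were lower and 0 higher at 5 against 0 mg/kg, where 3.45% of all tested genes were lower and 2.73% higher. The 8 were Dnajb9, Eif2ak3, Syvn1, Herpud1, Sel1l and Hyou1 of the chaperone arm and Sesn2 and Mthfd2 of the Atf4 arm. Because chaperone-arm genes vary together between mice, these are not 8 separate observations. The median log2 fold change of the chaperone arm was -0.30, with 18 of 23 negative, against a median of 0.012 and 48.1% negative over all tested genes. Within the run from 601 it was -0.46 with 22 of 23 negative, against 0.004 and 49.4% over all tested genes. Within the run from 619, which has 1 control mouse, it was 0.09 with 11 of 23 negative. All tested genes there had a median of 0.096, with 43.6% negative. The median of the Atf4 arm was -0.11 over both runs, with 7 of 11 negative, and its sign differed by run. For the run from 601 it was -0.66 with 8 of 11 negative. For the run from 619, with its single control, it was 0.55 with 3 of 12 negative, Phgdh included.

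At 50 against 0 mg/kg, 3 members were lower at an unadjusted p under 0.05 (Herpud1, Syvn1 and Atf5) and 1 was higher (Atf4), where 2.57% of all tested genes were lower and 2.54% higher. The chaperone arm had a median log2 fold change of -0.09 with 15 of 23 negative, and the Atf4 arm -0.22 with 8 of 11 negative, against 0.005 and 48.9% over all tested genes. Within the run from 619 the medians were 0.22 and 0.14, against 0.041 over all tested genes. At 0.5 against 0 mg/kg 2 members were higher (Xbp1 and Atf4) and 2 lower (Ern1 and Atf5), where 3.79% of all tested genes were higher and 3.20% lower. Without the 2 mice of highest Saa1, 0 members of either arm had such a p. The chaperone arm had a median log2 fold change of -0.07 with 12 of 23 negative, and the Atf4 arm -0.51 with 7 of 11 negative, against 0.005 and 49.2% over all tested genes. Without those mice the medians were -0.12 and -0.22, with 53.7% of all tested genes negative. At 0.5 mg/kg the signs also differed by run. For the run from 601 the chaperone arm had -0.20 and the Atf4 arm -0.52 (10 of 11 negative), against -0.03 over all tested genes. For the run from 619, with its single control, they had 0.45 and 0.51 (2 of 12 negative in the Atf4 arm), against 0.0 over all tested genes.

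**Figure D4:**
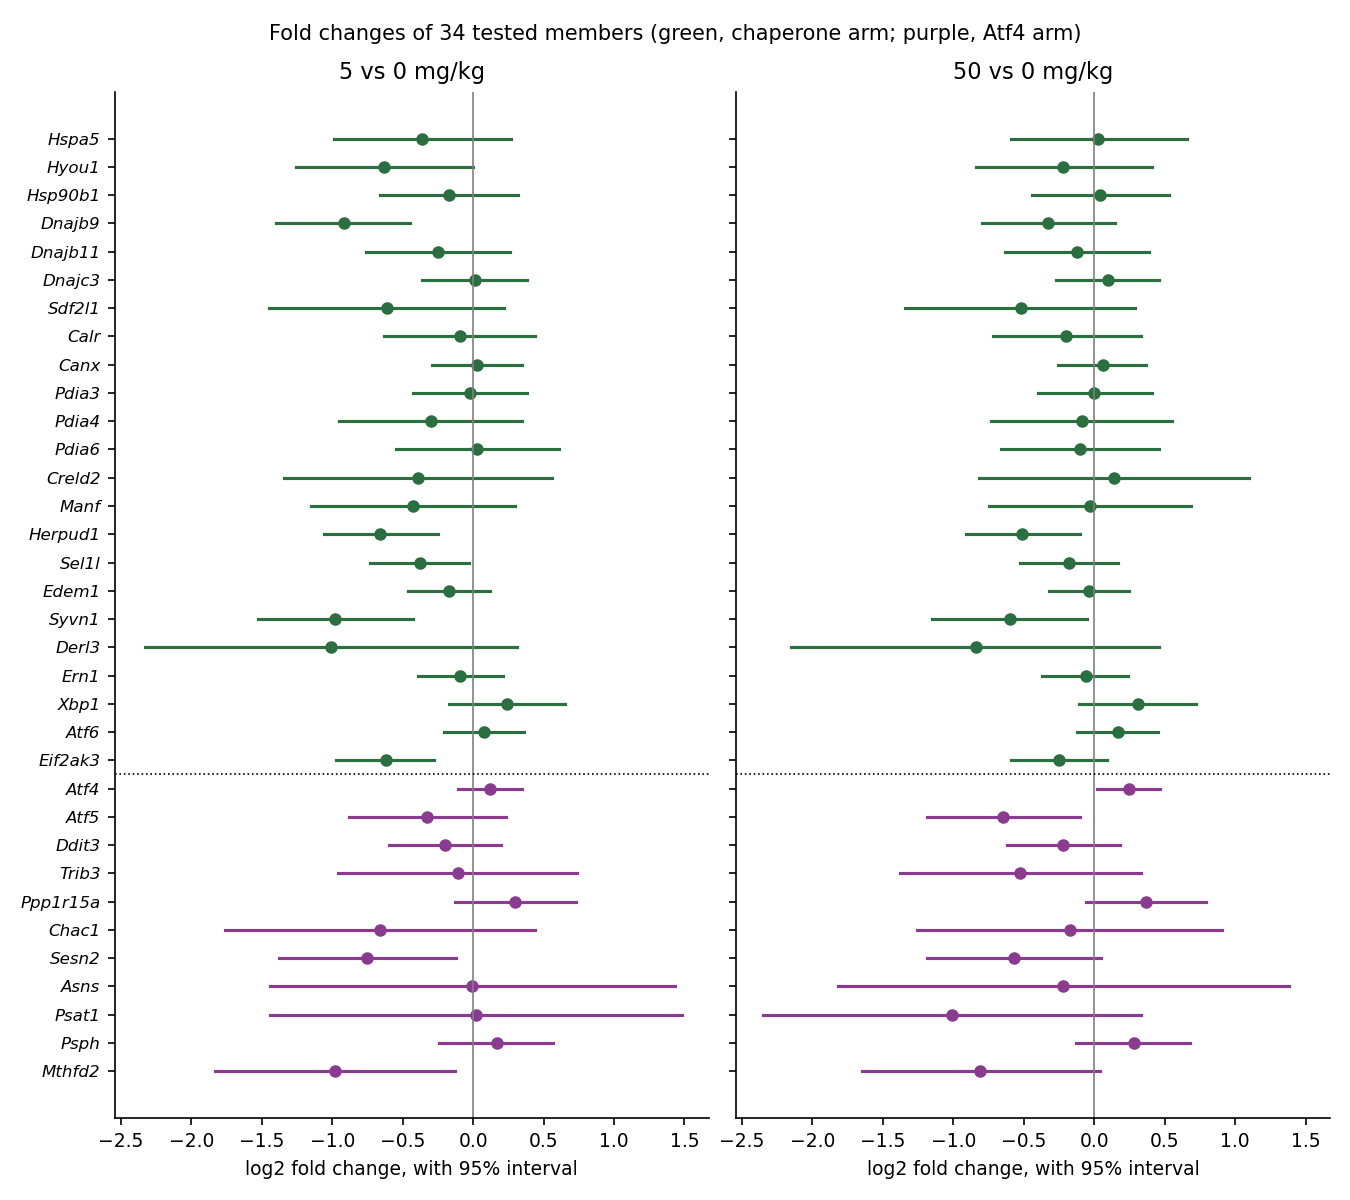
Log2 fold changes (points) with 95% intervals (lines) of the 34 tested members at 5 against 0 mg/kg (left) and 50 against 0 mg/kg (right), green for the chaperone arm and purple for the Atf4 arm. The intervals of Dnajb9, Eif2ak3, Syvn1 and Herpud1 lie below 0 at 5 mg/kg, and most other intervals include 0.

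Between treated doses, 0 members passed at 50 against 5 mg/kg (0.00% of all tested genes), at 50 against 0.5 mg/kg (0.00%) or at 5 against 0.5 mg/kg (0.00%) in edgeR, and 0 did in DESeq2 or limma-voom. At an unadjusted p under 0.05, Dnajb9 (0.60 ± 0.20, SE) and Eif2ak3 (0.37 ± 0.15) were higher at 50 than at 5 mg/kg, where 2.45% of all tested genes were higher. In that comparison 21 of 23 chaperone-arm members had a positive fold change (median 0.15), while 50.7% of all tested genes had a negative one. At 5 against 0.5 mg/kg, 21 of 23 had a negative fold change (median -0.25), as did 49.2% of all tested genes, and 4 were lower at an unadjusted p under 0.05, where 4.07% of all tested genes were lower. At 50 against 0.5 mg/kg 0 members had an unadjusted p under 0.05, as 3.88% of all tested genes did. Even so, 19 of 23 chaperone-arm members had a negative fold change there (median -0.08), as did 50.9% of all tested genes.

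The luminal chaperones sit at the centre of the folding system. Hspa5 was at 1519, 1078, 1609.5, 839 and 1035 CPM in the 5 controls and at 1371, 1755, 909.8, 1267 and 1184 CPM at 0.5 mg/kg. At 5 mg/kg its lowest, median and highest values were 507, 1006 and 1279 CPM, and at 50 mg/kg they were 541, 1109 and 2539.6 CPM. All doses overlapped the controls, and 50 mg/kg reached both below and above them. Its log2 fold change was -0.36 ± 0.31 (SE, 95% interval -0.99 to 0.27, edgeR adjusted p = 0.818) at 5 mg/kg and 0.03 ± 0.30 (-0.59 to 0.66, adjusted p = 1.0) at 50 mg/kg, where it was -0.28 without 50 mg/kg replicate 4.

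Hyou1 was at 448.0, 238, 396, 199 and 170.1 CPM in the controls and at 113.5, 179 and 228 CPM (lowest, median and highest) at 5 mg/kg. Its values at 5 mg/kg overlapped the 2 lowest controls, and the log2 fold change was -0.63 ± 0.31 (SE, edgeR adjusted p = 0.780). The 5 controls had a mean Hsp90b1 level of 1205 ± 239 CPM (SD), the mice at 0.5 mg/kg 1368 ± 344 CPM, those at 5 mg/kg 1081 ± 288 CPM and those at 50 mg/kg 1250.5 ± 451 CPM. The lectin chaperones Calr and Canx and the disulfide isomerases Pdia3, Pdia4 and Pdia6 had log2 fold changes between -0.30 and 0.06 at 5 and 50 mg/kg, all with an interval that included 0.

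Dnajb9, a co-chaperone of BiP (ENSMUSG00000014905, chromosome 12 from 44205559 to 44210326), was at 121.9, 104.7, 107.5, 37.7 and 94.5 CPM in the controls and at 117.0, 101.3, 54.5, 75.2 and 77.1 CPM at 0.5 mg/kg. At 5 mg/kg the lowest, median and highest values were 32.4, 48.9 and 55.0 CPM, and at 50 mg/kg they were 47.3, 59.5 and 124.6 CPM. Every mouse at 5 mg/kg lay below 4 of the 5 controls, and the overlap came from 0 mg/kg replicate 4.

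The log2 fold change of Dnajb9 at 5 mg/kg was -0.92 ± 0.23 (95% interval -1.40 to -0.45, edgeR adjusted p = 0.750). Without 0 mg/kg replicate 4 it was -1.12 and passed (edgeR adjusted p = 0.0288), the one case in which any member passed when single mice were left out or another setting was used. By run it was -0.87 for the numbers from 601 and -1.14 for those from 619. At 50 mg/kg it was -0.33. In that group replicate 3 (124.6 CPM) exceeded every control and replicate 4 (97.7 CPM) lay among the 4 higher controls. The other 6 were below 4 of the 5 controls. Sdf2l1, another BiP partner, had -0.61 ± 0.40 at 5 mg/kg, Dnajb11 had -0.25 ± 0.25 and Dnajc3 had 0.01 ± 0.18.

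In the fit over both runs, all 5 genes of ER-associated degradation (Herpud1, Sel1l, Edem1, Syvn1 and Derl3) had negative log2 fold changes at 5 against 0 mg/kg (median -0.66, with 48.1% of all tested genes negative) and at 50 against 0 mg/kg (median -0.51, with 48.9% negative). In both comparisons 0 of the 5 passed the adjusted threshold. Within the run from 619, with its single control, Herpud1 (0.14), Sel1l (0.21) and Edem1 (0.09) were positive at 50 mg/kg, and Sel1l (0.11) was at 5 mg/kg. Edem1 at 50 mg/kg was -0.04 ± 0.14, and 0.01 with the clock index in the fit or without 50 mg/kg replicate 2. Syvn1 (ENSMUSG00000024807, chromosome 19 from 6046576 to 6053712) was at 334, 192.0, 205, 113.6 and 163 CPM in the controls and at 213, 189.6, 105.9, 156.9 and 145.5 CPM at 0.5 mg/kg. It ran from 78.6 to 133.6 CPM with a median of 97.5 CPM at 5 mg/kg, and from 64.1 to 256 CPM with a median of 118.6 CPM at 50 mg/kg. At 5 mg/kg every mouse but replicate 3 lay below the lowest control. At 50 mg/kg replicates 1, 2, 5 and 7 did so, and the other 4 overlapped the controls.

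For Syvn1 the log2 fold change was -0.98 ± 0.27 (95% interval -1.53 to -0.43, edgeR adjusted p = 0.750) at 5 mg/kg and -0.60 ± 0.27 (-1.15 to -0.05, adjusted p = 0.934) at 50 mg/kg. Without 0 mg/kg replicate 1, the highest control, the value at 50 mg/kg was -0.36.

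Herpud1 (chromosome 8 from 94386438 to 94395377) was at 402, 302.5, 368, 299 and 227 CPM in the controls and at 221, 179.5, 175, 406 and 357 CPM at 0.5 mg/kg. It ran from 143.7 to 275.0 CPM with a median of 219.8 CPM at 5 mg/kg, and from 189.8 to 323.5 CPM with a median of 228 CPM at 50 mg/kg. At 0.5 mg/kg the 3 mice of the run from 601 were below every control, while replicate 4, of the run from 619, was the highest of all 26 mice. At 5 mg/kg all 8 mice were below the 4 controls of the run from 601.

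The log2 fold change of Herpud1 was -0.66 ± 0.20 (95% interval -1.06 to -0.25, edgeR adjusted p = 0.750) at 5 mg/kg and -0.51 ± 0.20 (-0.91 to -0.10, adjusted p = 0.883) at 50 mg/kg. Within the run from 601 these were -0.70 and -0.61, and within the run from 619, against its single control, -0.09 and 0.14.

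**Figure D5:**
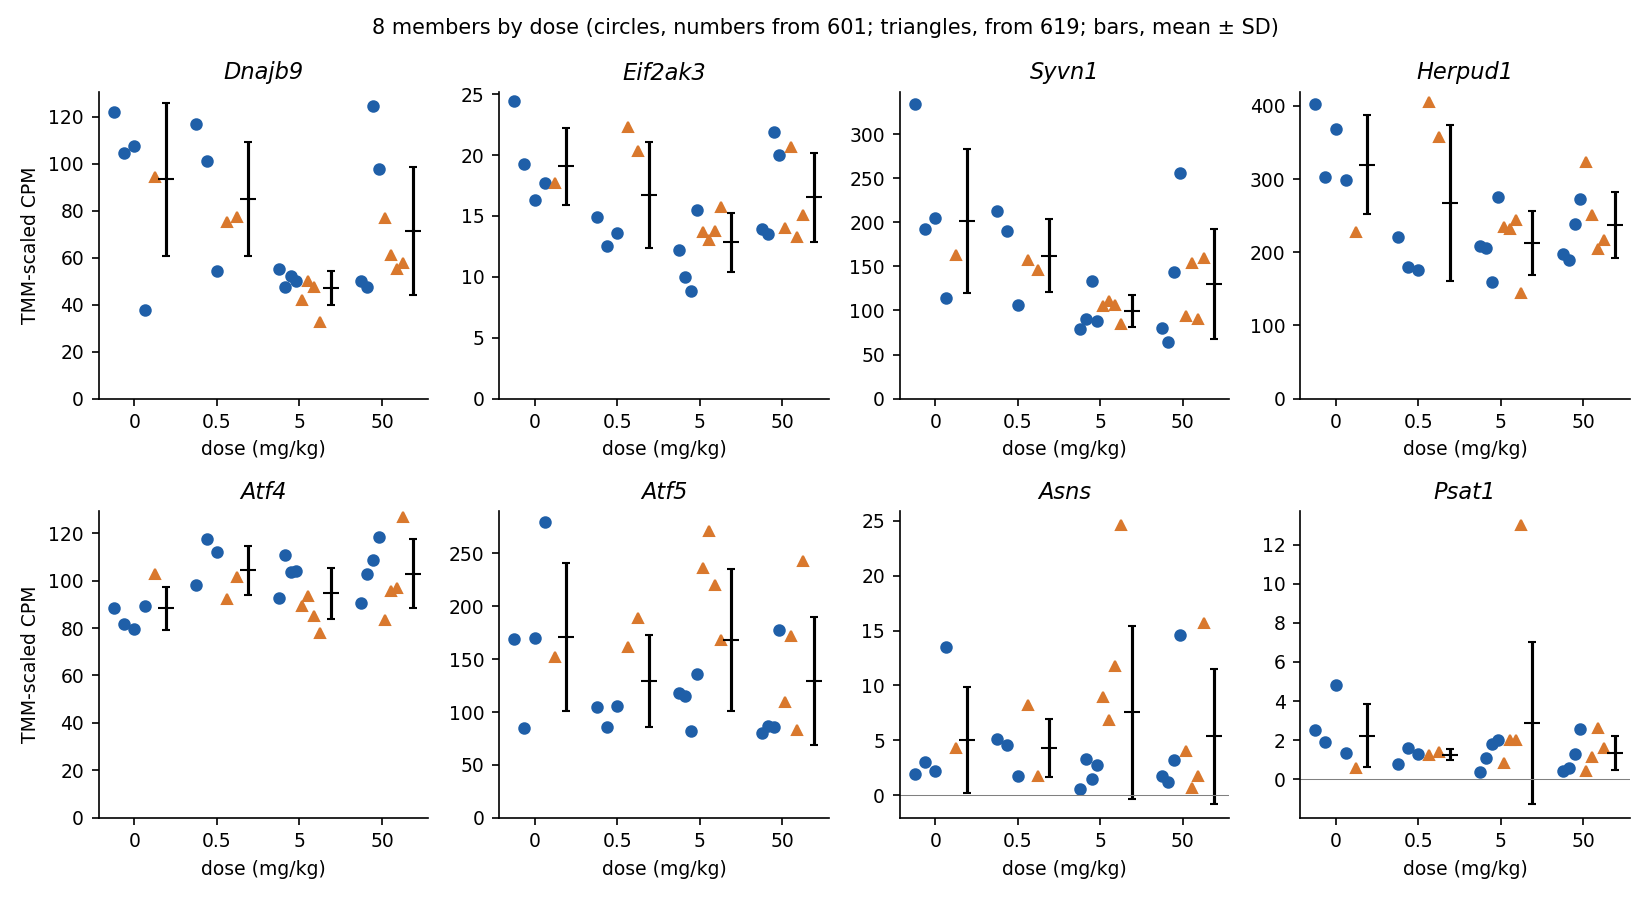
TMM-scaled CPM of 8 members by dose, with circles for mouse numbers from 601, triangles for numbers from 619 and bars for mean ± SD. All 8 mice at 5 mg/kg lie below the lowest control for Eif2ak3, Dnajb9 is narrow at 5 mg/kg (32.4 to 55.0 CPM), and 5 mg/kg replicate 8 is the highest point for Asns (24.6 CPM) and Psat1 (13.0 CPM).

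Among the sensors, Eif2ak3 (ENSMUSG00000031668, chromosome 6 from 70844515 to 70905245) was the single member whose 5 mg/kg mice did not overlap the controls. It was at 24.4, 19.3, 16.3, 17.7 and 17.7 CPM in the controls and at 8.84, 13.3 and 15.7 CPM (lowest, median and highest) at 5 mg/kg. Of all tested genes, 20 were non-overlapping and lower at 5 mg/kg, or 0.139%. At 0.5 mg/kg it was at 14.9, 12.5, 13.6, 22.3 and 20.3 CPM, and at 50 mg/kg at 13.3, 14.6 and 21.9 CPM (lowest, median and highest), and both doses overlapped the controls. Its log2 fold change at 5 mg/kg was -0.62 ± 0.17 (95% interval -0.97 to -0.28, edgeR adjusted p = 0.750), and by run it was -0.74 for the numbers from 601 and -0.34 for those from 619. Its counts were small, from 59 to 180 reads per library, and its exons share 485 bases with Gm43292 on the opposite strand.

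Xbp1, the transcription factor activated when IRE1 splices its RNA, was at 295, 238, 250, 226.5 and 283 CPM in the controls and at 297.5, 445, 415, 263.5 and 364 CPM at 0.5 mg/kg. Every mouse at 0.5 mg/kg but replicate 4 exceeded the highest control, replicate 1 by a small margin. Its log2 fold change was 0.48 ± 0.22 (95% interval 0.03 to 0.93, edgeR adjusted p = 0.669) at 0.5 mg/kg, 0.24 at 5 and 0.31 at 50 mg/kg. Gene counts do not separate the spliced from the unspliced form. Ern1 was at -0.35 ± 0.16 (adjusted p = 0.669) at 0.5 mg/kg and between -0.09 and -0.06 at the higher doses, and Atf6 stayed between 0.08 and 0.22 at all 3 doses.

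In the Atf4 arm, Atf4 and Atf5 had fold changes of opposite sign at 50 mg/kg. Atf4 was at 88.5, 81.8, 79.5, 89.3 and 102.7 CPM in the controls and at 98.1, 117.6, 112.0, 92.2 and 101.7 CPM at 0.5 mg/kg. It ran from 78.1 to 110.7 CPM with a median of 93.0 CPM at 5 mg/kg, and from 83.5 to 126.8 CPM with a median of 99.8 CPM at 50 mg/kg. The log2 fold change was 0.25 ± 0.11 (95% interval 0.02 to 0.47, edgeR adjusted p = 0.944) at 50 mg/kg, or 1.19-fold, and -0.02 within the run from 619. Atf4 is regulated mainly at translation, which RNA counts do not show.

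Atf5, a related factor of the same pathway, was at 168.7, 84.6, 170.3, 279.4 and 152.1 CPM in the controls. It was at 104.6, 86.0, 105.3, 161.6 and 188.6 CPM at 0.5 mg/kg, at 81.8, 152.2 and 271.4 CPM (lowest, median and highest) at 5 mg/kg and at 80.5, 98.2 and 242.9 CPM at 50 mg/kg. Controls alone spanned nearly the range of all mice. The log2 fold change was -0.65 ± 0.27 (95% interval -1.19 to -0.10, edgeR adjusted p = 0.905) at 50 mg/kg, -0.36 without 0 mg/kg replicate 4 and 0.01 within the run from 619. Ddit3 had means of 10.2 ± 2.96, 10.9 ± 1.95, 9.01 ± 2.54 and 8.88 ± 1.58 CPM at the rising doses, and 8.18 ± 1.07 CPM (n = 7) at 5 mg/kg without replicate 8. The table holds a second row named Ddit3 with 0 reads, which was left out.

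Of the feedback regulators, Sesn2, which lowers mTORC1 activity when amino acids are short, was at 6.72, 15.3, 10.8, 6.97 and 6.50 CPM in the controls and at 7.07, 2.29, 3.42, 11.6 and 9.25 CPM at 0.5 mg/kg. At 5 mg/kg its lowest, median and highest values were 4.07, 6.12 and 7.29 CPM, and at 50 mg/kg they were 3.83, 5.64 and 10.5 CPM. Replicates 2 and 3 stood above the other controls, which lay within the range of both higher doses. The log2 fold change at 5 mg/kg was -0.75 ± 0.31 (edgeR adjusted p = 0.780), -0.99 for the mice from 601, -0.02 for those from 619 and -0.50 without 0 mg/kg replicate 2.

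Trib3, which restrains growth signalling under stress, was at 3.50, 4.78, 3.98, 7.78 and 3.70 CPM in the controls and at 1.57, 0.808, 0.507, 5.82 and 5.39 CPM at 0.5 mg/kg. As with Herpud1, the 3 mice at 0.5 mg/kg of the run from 601 were below every control, and the 2 of the run from 619 were not. Its log2 fold change at 0.5 mg/kg was -0.93 ± 0.49 (edgeR adjusted p = 0.739), -2.48 for the mice from 601 and 0.63 for those from 619. At 5 mg/kg Ppp1r15a had a log2 fold change of 0.30 ± 0.21 and Chac1 one of -0.66 ± 0.54. At 50 mg/kg these were 0.37 ± 0.21 for Ppp1r15a and -0.17 ± 0.53 for Chac1, none past the threshold.

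Among the amino acid and one-carbon enzymes, Asns was at 1.96, 3.04, 2.20, 13.5 and 4.29 CPM in the controls, and at 5 mg/kg its lowest, median and highest values were 0.581, 5.03 and 24.6 CPM. The highest value was 5 mg/kg replicate 8, and without it the dose ran up to 11.8 CPM, with a mean of 5.10 ± 4.18 CPM (n = 7) in place of 7.53 ± 7.91 (n = 8). At 50 mg/kg replicates 4 and 8 were at 14.6 and 15.7 CPM and the other 6 at 4.02 CPM or less. The log2 fold changes of Asns had intervals from -1.44 to 1.43 at 5 mg/kg and from -1.82 to 1.38 at 50 mg/kg. At 5 against 0 mg/kg the value was -0.01, and -0.37 without 5 mg/kg replicate 8.

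Psat1 was at 13.0 CPM in 5 mg/kg replicate 8 and at most at 1.99 CPM in the other 7 mice of that dose, and controls ran from 0.591 to 4.80 CPM. Phgdh was at 7.57 CPM in the same library and at most at 0.939 CPM in the other 25. The steroid-producing markers of that library were 3517 CPM, as given above, and their part in these values was not tested. For Psat1, the value at 50 against 5 mg/kg was a log2 fold change of -1.03 ± 0.55 with that library and -0.099 without it.

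Mthfd2, a mitochondrial folate enzyme, was at 2.94, 2.61, 3.02, 4.43 and 1.33 CPM in the controls, and its lowest, median and highest values were 0.742, 1.19 and 3.73 CPM at 5 mg/kg and 0.594, 1.38 and 3.47 CPM at 50 mg/kg. The 4 controls of the run from 601 exceeded 7 of the 8 mice at 5 mg/kg, and replicate 8 was the exception. The log2 fold change was -0.98 ± 0.41 at 5 mg/kg (edgeR adjusted p = 0.780) and -0.81 ± 0.41 at 50 mg/kg, with 4 to 36 reads per library. Psph, the last enzyme of serine synthesis, had 0.17 ± 0.20 and 0.28 ± 0.20.

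Between the runs of mouse numbers, 0 of 34 members passed in edgeR, DESeq2 or limma-voom, against 0.0902% of all tested genes in edgeR, and 1 member (Atf5) had an unadjusted p under 0.05 and was higher in the run from 619, where 4.16% of all tested genes were higher. Atf5 had a mean of 125.4 ± 54.5 CPM (n = 15) for mice numbered from 601 and 182.2 ± 57.3 CPM (n = 11) for those from 619, ranges that overlapped. Its log2 difference was 0.65 ± 0.19 (95% interval 0.26 to 1.04, edgeR adjusted p = 0.210). In the Atf4 arm 10 of 11 members were higher in the run from 619 (median 0.15), and in the chaperone arm 12 of 23 (median 0.01), where 46.0% of all tested genes were lower.

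An index of 15 clock genes, the first principal component of their log2 CPM, had a mean of 1.61 ± 1.92 for mice numbered from 601 and -2.19 ± 2.83 for those from 619. With that index in the fit, 4 of 11 Atf4-arm members and 3 of 23 chaperone-arm members were higher in the run from 619, with medians of -0.09 and -0.21. In that fit 47.0% of all tested genes were lower, with a median of 0.014. The index term was built from the same libraries.

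Along the rank of dose, 0 members passed in edgeR (0.0139% of all tested genes), and 2 had an unadjusted p under 0.05 and a negative slope, Herpud1 (-0.17 ± 0.06 per step) and Syvn1 (-0.22 ± 0.09 per step), where 2.21% of all tested genes did. The difference between 50 and 5 mg/kg was also compared between runs in the 16 mice of those doses. There 0 of 33 members passed (0.00% of 13418 genes), and Sesn2 (-0.88 ± 0.37) and Ppp1r15a (-0.70 ± 0.33) had an unadjusted p under 0.05, where 2.68% of all tested genes were lower. In the chaperone arm 19 of 23 were negative (median -0.38) and in the Atf4 arm 9 of 10 (median -0.66), as were 51.7% of all tested genes (median -0.013). DESeq2 and limma-voom passed 0 members for the dose rank and for the difference by run.

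Other genes of both pathways were counted from lists chosen with earlier results known. Of 40 other ER stress genes, 39 were tested, and 0 passed in any comparison. At 5 against 0 mg/kg 28 of 39 were negative (median -0.09), as were 48.1% of all tested genes, and 4 were lower at an unadjusted p under 0.05, as were 3.45% of all tested genes. Among the 4 were Txndc11, a thioredoxin-like ER protein (-0.52 ± 0.14), the transcription factor Creb3l2 (-0.55 ± 0.25) and Ero1lb, an oxidase that supplies disulfide bonds (-0.44 ± 0.20). At 5 against 0.5 mg/kg 33 of 39 were negative (median -0.14, with 49.2% of all tested genes negative), and Hspa13 had -0.74 ± 0.21. At 50 against 0 mg/kg 21 of 39 were negative (median -0.01, with 48.9% of all tested genes negative). Of 41 other integrated stress response genes, 34 were tested and 0 passed, and 13 of 34 were negative at 5 against 0 mg/kg, where 48.1% of all tested genes were. Fgf21, a liver hormone raised by Atf4, had -1.42 ± 0.65 at 0.5 against 0 mg/kg. Ppp1r15b, the constitutive counterpart of Ppp1r15a, had 0.24 ± 0.10 at 50 against 0 mg/kg.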

How the data were processed

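Liver RNA of 26 mice was sequenced, 1 library per mouse. Each deposited value is an unnormalised count of the reads of a gene, and bcl2fastq, featureCounts and mm10 are named in the submitters' processing notes, without versions. The aligner, annotation and strand setting are not given in the sources used here. The 26 single-sample files equal the combined table.

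Libraries held 5433074 to 9088626 counts, so genes with few reads have wide intervals. Genes were filtered by filterByExpr on dose, leaving 14415, and tested with edgeR 4.0.16 (R 4.3.3, TMM, robust quasi-likelihood fit with terms for dose and run). P-values were adjusted by Benjamini-Hochberg over all tested genes, with a threshold of 0.05. SE is the log2 fold change divided by the root of F. DESeq2 1.42.0, limma-voom 3.58.1, RLE scaling, no filter, no run term, a clock index term, only the groups compared, single runs and leaving out mice were alternatives. The difference between 50 and 5 mg/kg by run was fitted on 13418 genes. Correlations used log2 CPM with a prior count of 2 and 100000 permutations (Python 3.11.15, scipy 1.17.1). The edgeR fit of 50 against 0 mg/kg was also run on simulated counts, which held no run effect.

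The members, arms and lists were chosen with earlier results of these data known. Members named with tests were the 4 of each arm with the smallest p in each comparison with 0 mg/kg and between runs, and 2 of each arm in the remaining comparisons, if their mean reached 1 CPM. Hspa5 and Hyou1 are outside that rule and were given adjusted p-values after their values were seen. Other members are given with their levels and fold changes. Promoter letters came from RefSeq on GRCm38.p6 and gene positions from GENCODE on mm10. The start of a gene can differ between these sources, as for Hspa5 and Asns, so a printed stretch can fall inside the GENCODE gene.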

Additional observations from a re-analysis of the deposited data

Results flagged for a closer look

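Of 136 groups of member values checked for a mouse far from the others, 6 held one, where chance alone gives about 5%. Ern1 was at 172.7 CPM in 0 mg/kg replicate 1, with the nearest control at 129.9 CPM. Atf6 was at 97.5 CPM in 5 mg/kg replicate 6, with the nearest at 83.2 CPM. Asns was at 13.5 CPM in 0 mg/kg replicate 4, with the nearest at 4.29 CPM. The other 3 were in 5 mg/kg replicate 8. In that library Ddit3 was at 14.8 CPM (nearest 10.3 CPM), Asns at 24.6 CPM (nearest 11.8 CPM) and Psat1 at 13.0 CPM (nearest 1.99 CPM). Its markers of steroid-producing cells summed to 3517 CPM, and their part in these values was not tested.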

How the results depend on the processing

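For the 52 fold changes that the rule for named members picked by small p, leaving out 1 mouse gave 1312 values, of which 1 changed sign and 1 was a new call. Of all 102 fold changes of tested members against 0 mg/kg, 32 took both signs when each mouse was left out in turn, all 32 with an unadjusted p above 0.05, such as Hspa5 (-0.28 to 0.17), Asns (-1.1 to 0.72) and Chac1 (-0.44 to 0.27) at 50 mg/kg. The number of members passing at 5 against 0 mg/kg ranged from 0 to 1, and the Psat1 difference between runs from -0.028 to 0.89. The other settings gave 512 values, of which 18 changed sign and 0 were new calls. Most were in the run from 619 alone, which has 1 control. There the log2 fold changes at 50 against 0 mg/kg were 0.14 for Herpud1, 0.01 for Atf5, -0.018 for Atf4 and 0.68 for Mthfd2, and Mthfd2 had 0.48 at 5 against 0 mg/kg and 0.069 per step of dose. At 0.5 against 0 mg/kg they were 0.77 for Herpud1, 0.23 for Atf5, -0.056 for Atf4, 0.63 for Trib3 and 0.71 for Sesn2. Trib3 had -0.89 at 50 and -0.036 at 5 against 0.5 mg/kg. Without 5 mg/kg replicates 6 and 8, Psat1 had 0.039 at 50 against 5 mg/kg and -0.11 between runs. Without both mice of highest Saa1, Trib3 had -0.043 at 50 against 0.5 mg/kg. With the clock index in the fit, Asns had -0.57 and Psat1 -0.039 between runs. Within the run from 619, 11 correlations with Hspa5 passed, with fewer mice. The cause of the changes in sign was not tested. No paired analysis was possible because replicate numbers follow accession order and pair no mice. The difference by run was not computed for Mthfd2, which the filter left out.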
